A study of Homo sapiens with 25 samples.

Results

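Ribosome biogenesis and RNA polymerase I are represented here by a list of 39 genes, given by symbol, and every one was found among the 36755 genes of the deposited table. All 39 passed the filter on low values, as did 22994 genes in all. Expression was measured in Jurkat, a leukaemia line of human T cells, grown with less histidine, an essential amino acid for such cultures. RNA sequencing covered media with 100%, 50%, 25% and 12.5% histidine on day 6, with 3, 3, 3 and 2 libraries, and media with 100%, 50%, 25%, 12.5% and 0% histidine on day 3, with 2 libraries at 100% (replicates 1 and 3) and 3 at each other level. Day 6 without histidine is not analysed here, and the labels name no transgene, deletion or drug in any group.

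A human ribosome is built in the nucleolus around ribosomal RNA that RNA polymerase I transcribes from the ribosomal DNA repeats. Small nucleolar ribonucleoproteins (snoRNPs) then methylate and pseudouridylate that RNA under guidance from small nucleolar RNAs (snoRNAs), and a large set of assembly factors cuts, folds and exports the precursors of the small and the large subunit. The transcription factor MYC is known to activate many of these genes, and growing leukaemia cells express them strongly.

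The 25 libraries held 17445 to 19624 genes with a normalized count of at least 10, and normalized totals lay between 18440000 and 21380000. All 12 T-cell markers of a list were above 0 in every library, and their summed level ran from 59970 to 61000 on day 6 and 63780 to 69380 on day 3 at 100% histidine, and reached 99480 to 105400 at 0% on day 3. Markers of other cell types varied between replicates, and the sum of 18 of them was 49170 in replicate 2 at 25% histidine on day 6, which held the heart myosin gene MYH7 at 18210 normalized counts, the highest of all libraries. The B-cell gene MS4A1 and the epithelial gene EPCAM were at 0 in 19 and 20 of the 25 libraries. Other markers of the list were above 0 in every library. The epithelial genes KRT8 and KRT18 had 95.15 to 211.9 and 85.76 to 227 normalized counts. The fibroblast genes COL1A1 and FN1 had 539.1 to 5519 and 435.9 to 3774. Of the T-cell markers, 4 were lower and 4 higher at 12.5% on day 6, and on day 3, 4 were lower and 4 higher at 25% and 1 was lower and 8 were higher at 0%. Of the 15 other markers tested, 1, 1 and 2 were lower and 0 higher in these comparisons. The part of these transcripts in the results was not tested, and results that rest on that library are given with and without it. Whether replicates came from independent cultures is not stated in the labels, and each p-value therefore rests on a spread among libraries that may be only technical. Values are normalized, so a change of total RNA per cell does not show in them, and in bulk cultures fewer cells of a type and less RNA per cell cannot be told apart. All comparisons with 100% histidine on one day share the libraries at 100%, and their results are not independent of each other.

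At 25% and 12.5% histidine more members were called lower than higher, and in single complexes some genes went opposite ways. On day 6, 11 of the 39 were lower and 4 higher at 25%, and 17 and 6 at 12.5%. Of genes at a similar level, 15.3% were lower and 25.5% higher at 25%, and 18.2% and 24.8% at 12.5%. On day 3, 21 were lower and 1 higher at 25%, and 17 and 4 at 12.5%. The shares at a similar level were then 19.5% and 20.2%, and 18.9% and 31%. At 25% and 12.5% histidine, on day 6 and on day 3, fibrillarin (FBL), the methyltransferase of the box C/D snoRNPs, was lower by 0.75 to 0.95 on the log2 scale, while NOP56, a core protein of the same particles, was higher by 0.45 to 1.07. At 12.5% histidine NHP2 was lower and GAR1 higher within the box H/ACA snoRNPs, and BOP1 and WDR12 were lower and PES1 higher within the PeBoW complex of the large subunit, on either day. Among these calls at 12.5%, those of NHP2 on day 3, GAR1 on both days, and WDR12 and PES1 on day 6 each did not hold when 1 library was left out, as given with each gene. At 25% PES1 was called on neither day, and GAR1 was not called on day 3. Without any histidine on day 3, 18 of the 39 genes were higher than at 12.5%, where 8.50% of all genes tested and 15.9% of those at a similar level were higher. With library position (the number of the library in the order of the samples, modulo 8) in the fit, 12 of the 39 were higher. The median member at 0% was 0.05 above its level at 100%, and FBL was lower by 0.74 and NOP56 higher by 0.91 than at 100%.

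**Figure D1:**
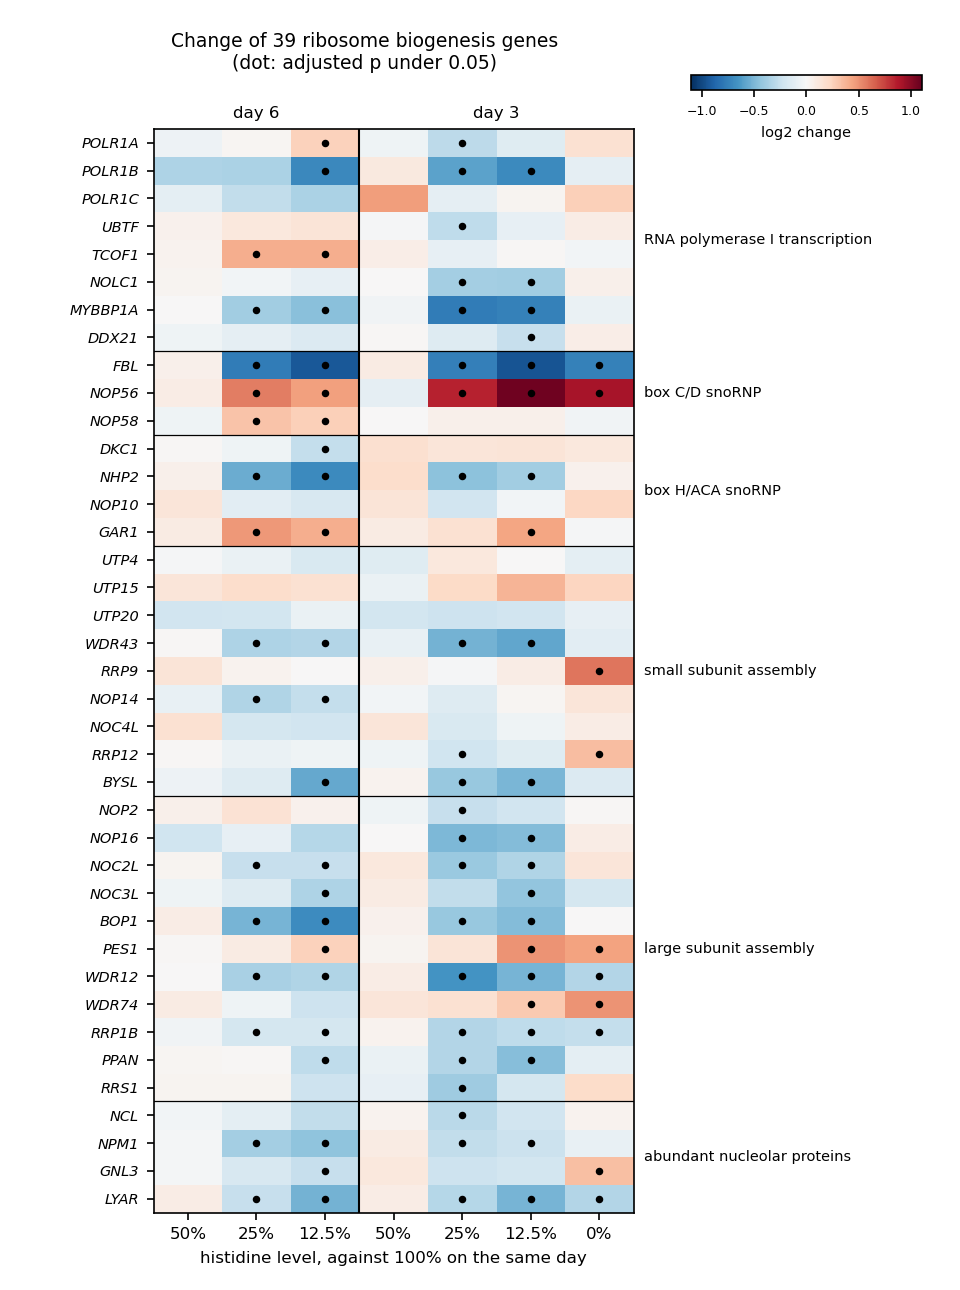
Log2 change of each of the 39 genes (rows, grouped by role) at each reduced histidine level against 100% on the same day (columns, day 6 left of day 3), blue for lower and red for higher, with a dot where the adjusted p was under 0.05. NOP56 is red and FBL blue at 25%, 12.5% and 0%, and the columns at 50% hold no dot.

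A gene was called changed in a comparison when its p from limma, adjusted over all 22994 genes tested, was under 0.05. At 50% histidine none of the 39 genes was called on day 6, when 0.00435% of all genes tested were called lower and 0% higher, and none on day 3, when 0% of all genes were called in either direction. At an unadjusted p under 0.05, limma gave 3 lower members on day 6 and 2 higher ones on day 3. Of all 22994 genes tested, 476 were lower on day 6 and 550 higher on day 3 at that threshold. No other tool was run. At 25% on day 6, 11 members were lower and 4 higher, against 9.24% of all genes lower and 11.0% higher. At 12.5% on day 6, 17 were lower and 6 higher, against 11.1% and 10.8% of all genes. On day 3, 21 were lower and 1 higher at 25%, against 9.72% and 9.81% of all genes, and 17 were lower and 4 higher at 12.5%, against 12.0% and 14.2%. At 0% on day 3, 4 were lower and 6 higher, against 16.1% and 14.8%, so the share of members called at this level was near the background or below it.

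The median log2 change of the 39 genes was -0.11 at 25% and -0.23 at 12.5% on day 6, where the medians of all genes tested were -0.02 and 0. On day 3 it was -0.27 at 25%, -0.21 at 12.5% and 0.05 at 0%, where all genes had medians of 0, -0.04 and -0.02. Genes with low counts are called less often, so the members were also set beside the 8031 genes whose mean lay in the members' own range of 418.9 to 24470 normalized counts. Of those genes, 15.3% were lower at 25% and 18.2% at 12.5% on day 6, and on day 3 the shares were 19.5% at 25%, 18.9% at 12.5% and 24.7% at 0%. The shares called higher were 25.5% at 25% and 24.8% at 12.5% on day 6, where 4 and 6 of the 39 members were higher. On day 3 they were 20.2%, 31% and 29.3% at 25%, 12.5% and 0%, where 1, 4 and 6 members were higher.

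With every library scaled to the same total, 16 members were lower and 4 higher at 25% on day 3, and the calls over all genes split into 1773 lower and 3056 higher, in place of 2234 and 2256. Single libraries also moved some of these counts, and where a group was left with 1 library, that library was taken to vary like those of the other groups. Without replicate 3 at 100% on day 3, 12 members rather than 21 were lower and 2 rather than 1 higher at 25%, and 2 rather than 4 were lower at 0%. Without replicate 1 at 100% on day 3, 2 rather than 4 were higher at 12.5%. On day 6, leaving out replicate 2 at 25% left 2 of the 4 members called higher at that level. At 12.5% on day 6, 11 were lower and 3 higher without replicate 2 at 100%, 11 and 2 without replicate 1 at 12.5%, and 10 and 2 without replicate 2 at 12.5%.

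The RNA polymerase I group holds 8 genes. At 25% histidine, 1 of them was lower and 1 higher on day 6, and 5 were lower on day 3. At 12.5%, 2 were lower and 2 higher on day 6, and 4 were lower on day 3. At 0% on day 3 none was called, with log2 changes between -0.1 and 0.26. Among the 8031 genes at a similar level, 15.3% were lower and 25.5% higher at 25% on day 6, and 18.2% and 24.8% at 12.5%. On day 3 the shares were 19.5% and 20.2% at 25%, 18.9% and 31% at 12.5%, and 24.7% and 29.3% at 0%.

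POLR1A encodes the largest subunit of the polymerase. On day 6 POLR1A had normalized counts of 2755, 2560 and 2666 at 100%, 2720, 2391 and 2548 at 50%, 2516, 2892 and 2687 at 25%, and 3050 and 3300 at 12.5%. On day 3 POLR1A had 3083 and 2911 at 100%, 2595, 2928 and 3209 at 50%, 2634, 2382 and 2333 at 25%, 2575, 2863 and 2758 at 12.5%, and 3145, 3414 and 3555 at 0%. The 2 libraries at 12.5% lay above all 3 at 100% on day 6, and those at 25% lay below both at 100% on day 3. The log2 change on day 6 was 0.02 ± 0.076 at 25% (SE, adjusted p = 0.904) and 0.25 ± 0.085 at 12.5% (adjusted p = 0.0312), a call that did not hold without either library at 12.5% (adjusted p = 0.0555 and 0.284) or without replicate 2 or 3 at 100% (0.0982 and 0.0621). On day 3 POLR1A fell by 0.29 ± 0.085 at 25% (adjusted p = 0.0144), which did not hold without replicate 1 at 100% (0.136) or replicate 3 at 25% (0.0621), and its change at 0% was 0.17 ± 0.085 (adjusted p = 0.145).

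POLR1B encodes the second largest subunit, which forms the active centre together with POLR1A. On day 6 POLR1B had normalized counts of 546, 524 and 489 at 100%, 334, 483 and 431 at 50%, 430.2, 434 and 359.7 at 25%, and 344 and 292 at 12.5%. On day 3 POLR1B had 589 and 552 at 100%, 605, 491 and 781 at 50%, 388, 373 and 377 at 25%, 307, 353 and 396 at 12.5%, and 564, 475 and 562 at 0%. On day 6 both libraries at 12.5% lay below all 3 at 100%, and on day 3 all 6 libraries at 25% and 12.5% lay below all 3 at 0% and both at 100%. The log2 change was -0.35 ± 0.146 at 25% (adjusted p = 0.0931) and -0.71 ± 0.163 at 12.5% on day 6 (adjusted p = 0.00185, or 0.0582 without replicate 2 at 12.5%). The change on day 3 was -0.59 ± 0.163 at 25% (adjusted p = 0.0105, or 0.0921 without replicate 1 at 100%), -0.7 ± 0.163 at 12.5% (adjusted p = 0.00166) and -0.1 ± 0.163 at 0% (adjusted p = 0.712).

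POLR1C is a subunit that RNA polymerases I and III share. On day 6 POLR1C had normalized counts of 442, 500.4 and 438 at 100%, 359, 437 and 492 at 50%, 440.1, 333 and 379.7 at 25%, and 376 and 343 at 12.5%. On day 3 POLR1C had 398 and 359 at 100%, 524, 507 and 534 at 50%, 329, 366 and 367 at 25%, 461, 340.3 and 368 at 12.5%, and 575, 382 and 424 at 0%. On day 6 both libraries at 12.5% lay below all 3 at 100%, and on day 3 the 3 at 50% lay above both at 100%, while the other levels overlapped with 100%. POLR1C was called at no level against 100%, with 95% intervals of the log2 change from -0.68 to -0.02 at 12.5% on day 6 and from -0.43 to 0.23 at 25% on day 3. Its change at 50% on day 3, the highest among the members there, was 0.46 ± 0.161 (adjusted p = 0.97).

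UBTF encodes the upstream binding factor, which keeps active ribosomal DNA open and brings in the polymerase. On day 6 UBTF had normalized counts of 5999, 6005 and 5673 at 100%, 6057, 6149 and 6113 at 50%, 6169, 7228 and 5927 at 25%, and 6447 and 6560 at 12.5%. On day 3 UBTF had 6783 and 7270 at 100%, 6854, 7142 and 6984 at 50%, 5562, 5776 and 6036 at 25%, 6662, 6652 and 6513 at 12.5%, and 7558, 7156 and 7609 at 0%. The highest library at 25% on day 6 was replicate 2, the one with heart transcripts, and the 3 libraries at 25% on day 3 were the lowest of that day. UBTF changed by 0.12 ± 0.057 at 25% (adjusted p = 0.136) and 0.14 ± 0.063 at 12.5% (adjusted p = 0.118) on day 6. UBTF fell by 0.28 ± 0.063 at 25% on day 3 (adjusted p = 0.00194, or 0.0593 without replicate 3 at 100%), while its change was -0.09 at 12.5% (adjusted p = 0.357) and 0.08 at 0% (adjusted p = 0.371).

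MYBBP1A is a nucleolar protein that takes part in ribosomal RNA transcription and processing. On day 6 MYBBP1A had normalized counts of 3850, 3748 and 3934 at 100%, 3647, 3914 and 4017 at 50%, 2936, 3104 and 2852 at 25%, and 2860 and 2720 at 12.5%. On day 3 MYBBP1A had 5233 and 5762 at 100%, 5112, 5561 and 5379 at 50%, 3311, 3334 and 3022 at 25%, 3423, 3133 and 3317 at 12.5%, and 5394, 5165 and 5182 at 0%. On each day every library at 25% and 12.5% lay below every library at 50% and 100%, and the 3 libraries without histidine on day 3 stood among those at 50%. MYBBP1A was lower by 1.3-fold at 25% and 1.38-fold at 12.5% on day 6 (log2 -0.38 ± 0.058 and -0.46 ± 0.065, adjusted p = 2.3e-05 and 5.32e-06). At day 3 MYBBP1A was lower by 1.71-fold at 25% and 1.67-fold at 12.5% (log2 -0.77 and -0.74, SE 0.065 each, adjusted p = 1.23e-09 and 1.75e-09), and its change at 0% was -0.07 ± 0.065 (adjusted p = 0.506). Among the 39 genes it had the largest fall at 25% on day 3 and the largest rise between 12.5% and 0%, 0.67 ± 0.058 (adjusted p = 9.64e-10).

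The other genes of the group were NOLC1, a chaperone of snoRNPs that also binds the polymerase, TCOF1, the treacle protein that recruits UBTF and the polymerase, and the RNA helicase DDX21. NOLC1 changed by -0.03 at 25% and -0.09 at 12.5% on day 6, where neither was called, and fell by 0.37 and 0.38 at the same levels on day 3 (adjusted p = 4.7e-05 and 2.16e-05). TCOF1 rose by 0.4 at 25% and at 12.5% on day 6 (adjusted p = 0.00673 and 0.0133). Its values at 25% were 2912, 3656 and 2528, with the highest in replicate 2, against 2445, 2067 and 2314 at 100%, and without that library its change at 25% was 0.26 (adjusted p = 0.0647). The rise at 12.5% did not hold without replicate 2 at 100% (adjusted p = 0.0657) or replicate 2 at 12.5% (0.13), and on day 3 TCOF1 was not called at any level. DDX21 fell by 0.25 at 12.5% on day 3 (adjusted p = 0.0109), which did not hold without replicate 1 at 100% (0.0823) or replicate 3 at 12.5% (0.0689).

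The box C/D snoRNPs carry a methyltransferase, FBL, and the scaffold pair NOP56 and NOP58. On day 6 FBL had normalized counts of 5833, 6368 and 6109 at 100%, 6341, 6795 and 6015 at 50%, 3570, 4106 and 3121 at 25%, and 3248 and 3157 at 12.5%. On day 3 FBL had 6733 and 7701 at 100%, 8276, 7293 and 7455 at 50%, 4490, 4014 and 4381 at 25%, 3678, 3496 and 4014 at 12.5%, and 4702, 4129 and 4104 at 0%. On each day every library at 25% or below lay under every library at 50% and 100%. FBL was lower by 1.71-fold at 25% and 1.9-fold at 12.5% on day 6 (log2 -0.77 ± 0.083 and -0.93 ± 0.092, adjusted p = 1.06e-07 and 2.71e-08). At day 3 FBL was lower by 1.68-fold at 25%, 1.93-fold at 12.5% and 1.67-fold at 0% (log2 -0.75, -0.95 and -0.74, SE 0.092 each, adjusted p = 1.02e-06, 1.19e-08 and 4.33e-07).

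NOP56 went the other way. On day 6 NOP56 had normalized counts of 2805, 2968 and 2921 at 100%, 2904, 3043 and 3241 at 50%, 4420, 4175 and 4197 at 25%, and 4022 and 3904 at 12.5%. On day 3 NOP56 had 3111 and 3179 at 100%, 3000, 2911 and 2898 at 50%, 5924, 5524 and 5621 at 25%, 6984, 6434 and 6377 at 12.5%, and 6307, 5586 and 5882 at 0%. On each day every library at 25% or below lay above every library at 50% and 100%. The rise was 1.47-fold at 25% and 1.37-fold at 12.5% on day 6 (log2 0.56 ± 0.055 and 0.45 ± 0.062, adjusted p = 2.74e-08 and 4.03e-06). The rise on day 3 was 1.81-fold at 25%, 2.1-fold at 12.5% and 1.88-fold at 0% (log2 0.85, 1.07 and 0.91, SE 0.062 each, adjusted p = 9.13e-11, 6.48e-13 and 7e-12). NOP56 was called higher, and FBL, LYAR, RRP1B and WDR12 were called lower, in each of these 5 comparisons, which share the libraries at 100% of their day. Among these 5 genes, NOP56 and FBL were the ones whose calls all held under every setting tried. In GENCODE 29 the NOP56 gene (chr20:2652145-2658393, plus strand) contains 5 snoRNA genes, SNORA51, SNORD110, SNORD56, SNORD57 and SNORD86, and 3 pseudogenes carry its name.

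NOP58, the partner of NOP56, rose with it on day 6, in calls that depended on single libraries, and was not called against 100% on day 3. On day 6 NOP58 had normalized counts of 1734, 2030 and 1738 at 100%, 1818, 1888 and 1623 at 50%, 2271, 2533 and 2013 at 25%, and 2149 and 2238 at 12.5%. On day 3 NOP58 had 2783 and 2482 at 100%, 2834, 2471 and 2597 at 50%, 2857, 2633 and 2750 at 25%, 2883, 2582 and 2757 at 12.5%, and 2618, 2468 and 2609 at 0%. The libraries at 12.5% lay above those at 100% on day 6, while every reduced level overlapped with 100% on day 3. NOP58 rose by 0.31 ± 0.082 at 25% (adjusted p = 0.00748, or 0.0685 without replicate 2 at 25%, where the change was 0.23) and by 0.26 ± 0.091 at 12.5% on day 6 (adjusted p = 0.0405). The call at 12.5% did not hold without replicate 1 or 3 at 100% (0.136 and 0.133) or without replicate 1 or 2 at 12.5% (0.108 and 0.234). On day 3 the 95% intervals of its change ran from -0.13 to 0.25 at 25% and at 12.5%, and from -0.22 to 0.15 at 0%.

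**Figure D2:**
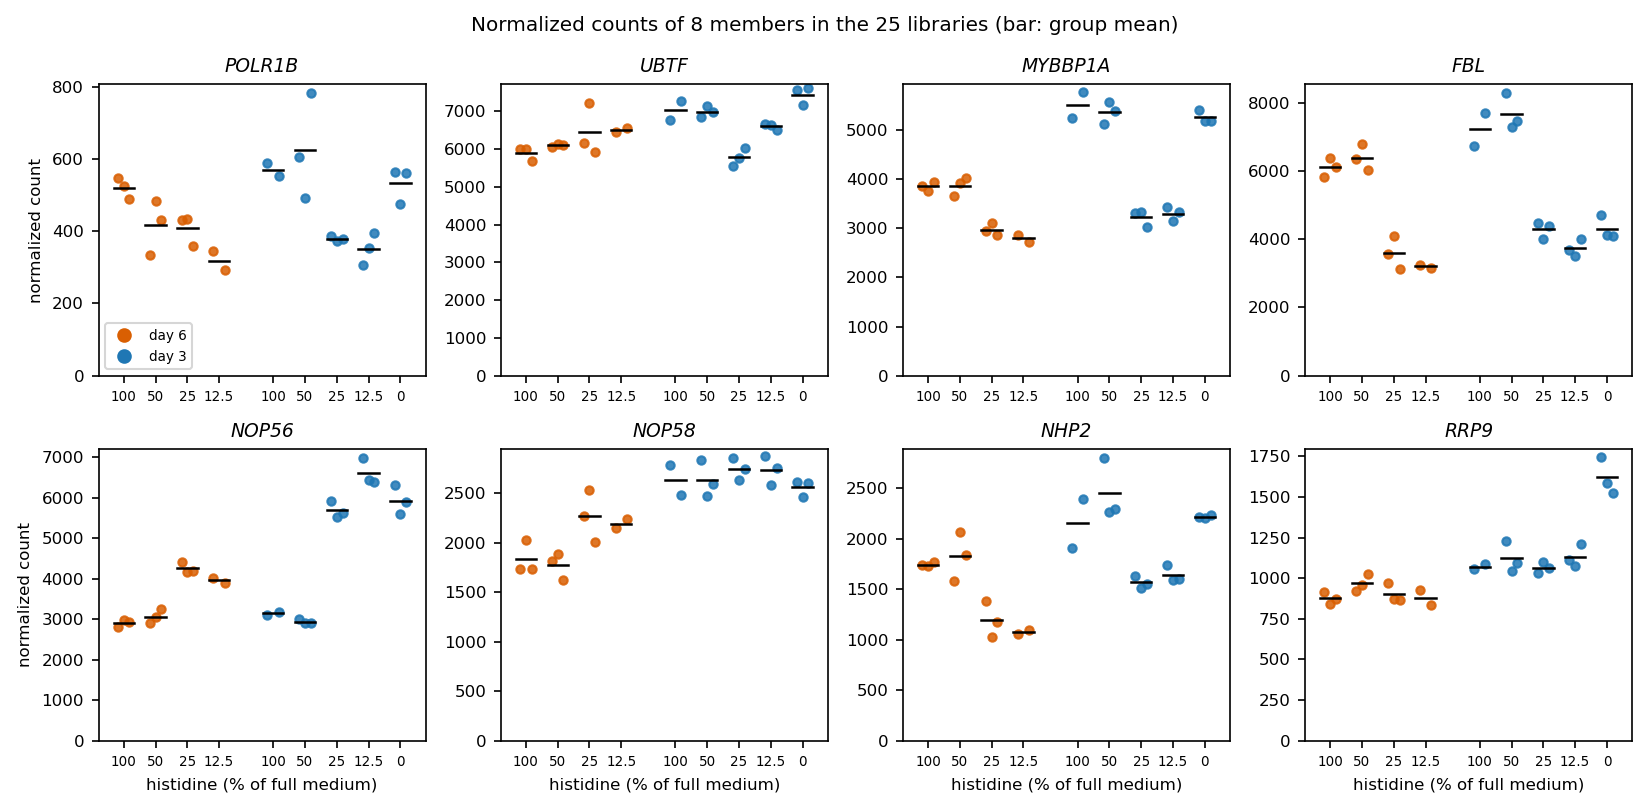
Normalized counts of 8 genes in the 25 libraries (points) by histidine level in percent, day 6 left of day 3, with a bar at each group's mean and the axis starting at 0. FBL drops and NOP56 climbs at 25% on either day, MYBBP1A and POLR1B return near their 100% level at 0% on day 3, and RRP9 stands out at 0%, with 1527 to 1748.

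The box H/ACA snoRNPs consist of the pseudouridine synthase dyskerin (DKC1) with NHP2, NOP10 and GAR1. At 12.5% histidine 2 of the 4 were lower and 1 higher on day 6, and 1 was lower and 1 higher on day 3. Among the 8031 genes at a similar level, 18.2% were lower and 24.8% higher on day 6, and 18.9% and 31% on day 3. On day 6 DKC1 had normalized counts of 3389, 3547 and 3510 at 100%, 3542, 3279 and 3684 at 50%, 3351, 3440 and 3309 at 25%, and 2842 and 2968 at 12.5%. On day 3 DKC1 had 3703 and 3813 at 100%, 4274, 4331 and 4164 at 50%, 4167, 4258 and 3928 at 25%, 4313, 3978 and 4113 at 12.5%, and 4010, 3979 and 4299 at 0%. Both libraries at 12.5% lay below all others of day 6, while on day 3 the 2 libraries at 100% were the lowest. DKC1 fell by 0.26 ± 0.06 at 12.5% on day 6 (adjusted p = 0.0019) and its changes on day 3 were 0.13, 0.14 and 0.12 at 25%, 12.5% and 0%, with adjusted p between 0.098 and 0.14.

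NHP2 is the RNA-binding protein that joins the guide RNA to the particle. On day 6 NHP2 had normalized counts of 1734, 1727 and 1769 at 100%, 1582, 2066 and 1833 at 50%, 1384, 1029 and 1176 at 25%, and 1053 and 1093 at 12.5%. On day 3 NHP2 had 1909 and 2394 at 100%, 2796, 2263 and 2290 at 50%, 1631, 1514 and 1554 at 25%, 1739, 1592 and 1598 at 12.5%, and 2216, 2202 and 2231 at 0%. On day 6 all libraries at 25% and 12.5% lay below all at 50% and 100%, and on day 3 those at 25% and 12.5% lay below all others. NHP2 fell by 0.55 ± 0.101 at 25% and 0.7 ± 0.113 at 12.5% on day 6 (adjusted p = 0.000198 and 3.77e-05). NHP2 fell on day 3 by 0.45 ± 0.113 at 25% and 0.38 ± 0.113 at 12.5% (adjusted p = 0.00498 and 0.0127), neither of which held without replicate 3 at 100% (adjusted p = 0.205 and 0.308), and its change at 0% was 0.05 (adjusted p = 0.791). The annotation lists 2 pseudogenes that carry its name.

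NOP10 is the smallest protein of the particle. On day 6 NOP10 had normalized counts of 612, 686 and 719 at 100%, 659, 872 and 686 at 50%, 669.5, 647 and 543 at 25%, and 579 and 605 at 12.5%. On day 3 NOP10 had 722 and 903 at 100%, 993, 813 and 878 at 50%, 756, 688 and 652 at 25%, 809, 759 and 813 at 12.5%, and 1028, 915 and 903 at 0%. On day 6 both libraries at 12.5% lay below all 3 at 100%, and on day 3 the libraries at 25% and 12.5% overlapped with those at 100%. NOP10 was called at no level against 100%, with 95% intervals from -0.44 to 0.08 at 12.5% on day 6 and from -0.03 to 0.49 at 0% on day 3.

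GAR1, which helps the particle release its substrate, had 684 and 705 normalized counts at 12.5% on day 6, against 510.6, 491 and 582 at 100%, a rise of 0.4 ± 0.119 (adjusted p = 0.0158). That rise did not hold without replicate 1 or 2 at 12.5% (adjusted p = 0.0707 and 0.118) or replicate 2 at 100% (0.0651), whereas its rise of 0.48 ± 0.107 at 25% on day 6 (adjusted p = 0.00169) held under every setting tried. On day 3 it rose by 0.43 ± 0.119 at 12.5% (adjusted p = 0.00755, or 0.147 without replicate 1 at 100%) and its change at 0% was -0.01 (adjusted p = 0.979).

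Of the 9 small subunit factors, 2 were called lower at 25% and 3 at 12.5% on day 6, and 3 at 25% and 2 at 12.5% on day 3. None was called higher at these levels. Among the 8031 genes at a similar level, 15.3% and 18.2% were lower and 25.5% and 24.8% higher at these levels on day 6. On day 3, 19.5% and 18.9% were lower and 20.2% and 31% higher. A difference between the group and these shares was not tested. WDR43, a component of the early processome, fell by 0.34 and 0.32 at 25% and 12.5% on day 6 and by 0.52 and 0.57 on day 3 (adjusted p = 0.000251, 0.00123, 3.87e-06 and 5.65e-07), in calls that held under every setting tried. BYSL, which acts late in the maturation of the small subunit, changed by -0.14 at 25% on day 6 without a call, and fell by 0.56 at 12.5% on day 6 and by 0.42 and 0.5 at 25% and 12.5% on day 3 (adjusted p = 2.09e-05, 0.000641 and 6.2e-05). NOP14 fell by 0.33 and 0.26 at 25% and 12.5% on day 6 (adjusted p = 0.000933 and 0.0149), where the call at 12.5% did not hold without replicate 1 at 100% (0.0668) or without replicate 1 or 2 at 12.5% (0.0856 and 0.0946). It was not called on day 3. UTP4, UTP15, UTP20 and NOC4L, further processome proteins, were called at no level against 100%.

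RRP9 belongs to the U3 snoRNP, which guides the first cuts of the precursor RNA. On day 6 RRP9 had normalized counts of 918, 840.5 and 872 at 100%, 922, 960.3 and 1026 at 50%, 971, 873 and 864 at 25%, and 925 and 835 at 12.5%. On day 3 RRP9 had 1058 and 1085 at 100%, 1228, 1046 and 1095 at 50%, 1031, 1100 and 1062 at 25%, 1112, 1076 and 1208 at 12.5%, and 1748, 1586 and 1527 at 0%. The 3 libraries without histidine lay above all 22 others. RRP9 rose 1.51-fold at 0% on day 3 (log2 0.59 ± 0.089, adjusted p = 6.43e-06), and its change was 0.04 at 25% and 0 at 12.5% on day 6 and -0.01 and 0.08 at the same levels on day 3, none of them called. RRP12, needed for export of the precursor of the small subunit, had 2817, 2669 and 2707 normalized counts at 0% on day 3, against 2117 and 2195 at 100%, a rise of 0.34 ± 0.075 (adjusted p = 0.000745). At 25% on day 3 RRP12 fell by 0.22 (adjusted p = 0.0381), which did not hold without replicate 1 or 3 at 100% (0.091 and 0.225) or replicate 1 at 25% (0.149).

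Of the 11 large subunit factors, 4 were lower at 25% and 6 lower and 1 higher at 12.5% on day 6. On day 3, 8 were lower at 25% and 7 lower and 2 higher at 12.5%. Among the 8031 genes at a similar level, 15.3% were lower and 25.5% higher at 25% on day 6, and 18.2% and 24.8% at 12.5%. On day 3 the shares were 19.5% and 20.2% at 25%, and 18.9% and 31% at 12.5%. PES1, BOP1 and WDR12 form the PeBoW complex, which matures the RNA of the large subunit. BOP1 had 2956 and 2646 normalized counts at 12.5% on day 6, against 4279, 4719 and 4507 at 100%, and fell by 0.69 ± 0.084 (adjusted p = 7.54e-07). BOP1 had 3938, 3891 and 3975 at 12.5% on day 3, against 5165 and 5870 at 100%, and fell by 0.48 ± 0.084 (adjusted p = 6.77e-05), while its change at 0% was 0 (adjusted p = 0.997).

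WDR12 fell by 0.36 and 0.33 at 25% and 12.5% on day 6 (adjusted p = 0.00256 and 0.0133), where the second call did not hold without replicate 2 at 100% (0.0536) or replicate 2 at 12.5% (0.196). On day 3 it fell by 0.66, 0.51 and 0.32 at 25%, 12.5% and 0% (adjusted p = 1.03e-05, 0.000155 and 0.0101), and the last did not hold without replicate 3 at 100% (0.118). PES1 had 2713 and 2481 normalized counts at 12.5% on day 6, against 2110, 2248 and 2203 at 100%. It rose by 0.25 ± 0.07 there (adjusted p = 0.0106, or 0.195 without replicate 1 at 12.5%). Day 3 values of PES1 were 3546, 3405 and 3547 at 12.5% and 3586, 3280 and 3287 at 0%, against 2317 and 2693 at 100%, rises of 0.49 and 0.44 (adjusted p = 5.33e-06 and 1.67e-05). Of the 3 genes of this complex, BOP1 and WDR12 were thus below and PES1 above their 100% libraries at 12.5% on either day, as RNA. Protein was not measured.

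NOP16, a late nucleolar factor and a known MYC target, was among the 3 largest changes between 0% and 12.5%. On day 6 NOP16 had normalized counts of 443, 526 and 519 at 100%, 448, 428 and 396 at 50%, 453, 495 and 442 at 25%, and 415 and 384 at 12.5%. On day 3 NOP16 had 654 and 744 at 100%, 781, 643 and 669 at 50%, 556, 469.6 and 472 at 25%, 519, 488 and 496 at 12.5%, and 746, 751 and 711 at 0%. On day 3 all libraries at 25% and 12.5% lay below all others. NOP16 fell by 0.49 and 0.48 at 25% and 12.5% on day 3 (SE 0.112 each, adjusted p = 0.00229 and 0.00191), neither of which held without replicate 3 at 100% (adjusted p = 0.0709 and 0.0594). Its change at 0% was 0.08 (adjusted p = 0.674), and on day 6 it changed by -0.09 at 25% and -0.31 at 12.5% (adjusted p = 0.591 and 0.0503).

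NOC2L fell by 0.25 at 25% and at 12.5% on day 6 (adjusted p = 0.0197 and 0.0342), and by 0.41 and 0.33 on day 3 (adjusted p = 0.000872 and 0.00409), where the second did not hold without replicate 3 at 100% (0.121). The call at 25% on day 6 did not hold without replicate 2 or 3 at 100% (0.0632 and 0.0713) or replicate 1 or 3 at 25% (0.0785 and 0.0724), and that at 12.5% did not hold without replicate 2 or 3 at 100% (0.0837 and 0.0917) or either library at 12.5% (0.0644 and 0.282). RRP1B, which binds protein phosphatase 1 in the nucleolus, fell by 0.19 at 25% and at 12.5% on day 6 and by 0.32, 0.28 and 0.26 at 25%, 12.5% and 0% on day 3 (adjusted p between 0.000401 and 0.0241). Its call at 25% on day 3 held under every setting tried. Those at 12.5% and 0% on day 3 did not hold without replicate 3 at 100% (0.0502 and 0.0801), that at 25% on day 6 did not hold without replicate 2 at 100% (0.0611), and that at 12.5% on day 6 did not hold without replicate 2 or 3 at 100% (0.0738 and 0.0559) or either library at 12.5% (0.106 and 0.139). PPAN, NOC3L, NOP2 and RRS1 were called lower at 1 to 3 of the 5 levels and higher at none. The calls of PPAN and NOC3L at 12.5% on day 3 held under every setting tried. Those of PPAN, NOP2 and RRS1 at 25% on day 3 did not, with 0.112 for PPAN without replicate 2 and 0.132 for NOP2 without replicate 3 at 25%. Those of PPAN and NOC3L at 12.5% on day 6 did not hold without replicate 2 at 100% (0.153 and 0.114). WDR74, another large subunit assembly factor, rose by 0.49 ± 0.086 at 0% on day 3 (adjusted p = 5.89e-05). It rose by 0.29 at 12.5% on day 3 (adjusted p = 0.0119), a call that did not hold without replicate 1 at 100%, where the change was 0.19. Its change at 12.5% on day 6 was -0.23 (adjusted p = 0.0572).

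Nucleolin (NCL) and nucleophosmin (NPM1) are the abundant scaffold proteins of the nucleolus. On day 6 NCL had normalized counts of 13700, 16600 and 13620 at 100%, 15400, 14750 and 12930 at 50%, 12650, 15830 and 12270 at 25%, and 12160 and 12000 at 12.5%. On day 3 NCL had 17780 and 19250 at 100%, 20100, 18450 and 18730 at 50%, 15500, 15240 and 14220 at 25%, 17240, 15360 and 15480 at 12.5%, and 20120, 17830 and 19020 at 0%. Both libraries at 12.5% lay below all at 100% on day 6, as did the 3 at 25% on day 3. NCL was called at no level on day 6, with -0.27 ± 0.098 at 12.5% (adjusted p = 0.0535). It fell by 0.3 ± 0.098 at 25% on day 3 (adjusted p = 0.0318), which did not hold without replicate 1 or 3 at 100% (0.0631 and 0.256) or replicate 2 or 3 at 25% (0.0544 and 0.106).

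On day 6 NPM1 had normalized counts of 25170, 26280 and 23180 at 100%, 24780, 25600 and 23060 at 50%, 20790, 18750 and 18230 at 25%, and 17520 and 19170 at 12.5%. On day 3 NPM1 had 27510 and 29020 at 100%, 32740, 29130 and 28340 at 50%, 24180, 23350 and 22730 at 25%, 24100, 23570 and 24300 at 12.5%, and 28150, 24720 and 27460 at 0%. Libraries at 25% and 12.5% lay below all at 100% on either day. NPM1 fell by 0.37 ± 0.061 at 25% and 0.44 ± 0.068 at 12.5% on day 6 (adjusted p = 5.85e-05 and 2.4e-05), and by 0.27 and 0.24 on day 3 (adjusted p = 0.00501 and 0.0106), where neither held without replicate 3 at 100% (0.0873 and 0.125). The annotation names 45 NPM1 pseudogenes, so how reads were shared between NPM1 and these copies is uncertain.

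LYAR, a nucleolar growth regulator, fell by 0.25 and 0.52 at 25% and 12.5% on day 6 (adjusted p = 0.019 and 5.8e-05) and by 0.31, 0.51 and 0.32 at 25%, 12.5% and 0% on day 3 (adjusted p = 0.0112, 4.65e-05 and 0.00458). The calls at 12.5% held under every setting tried, while those at 25% were lost without replicate 2 at 100% or replicate 3 at 25% on day 6 (0.0976 and 0.0883), and without replicate 1 or 3 at 100% or replicate 3 at 25% on day 3. The call of LYAR at 0% on day 3 did not hold under every setting tried. Nucleostemin (GNL3), a GTPase that shuttles between nucleolus and nucleoplasm, had 3134, 3031 and 3249 normalized counts at 0% on day 3, against 2463 and 2545 at 100%, a rise of 0.33 ± 0.083 (adjusted p = 0.00314). At 12.5% on day 6 GNL3 fell by 0.25 (adjusted p = 0.0304), which did not hold without replicate 2 or 3 at 100% (0.0908 and 0.0627) or replicate 1 at 12.5% (0.378).

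Neighbouring levels were compared as well. From 50% to 25% histidine, 11 members were lower and 4 higher on day 6, against 10.3% and 10.6% of all genes, and 24 were lower and 2 higher on day 3, against 12.5% and 11.4%. From 25% to 12.5%, 1 member was lower and 0 higher on day 6, against 0.670% and 0.204% of all genes, and 0 were lower and 3 higher on day 3, against 2.81% and 5.41%. The gene on day 6 was BYSL (-0.42 ± 0.086, adjusted p = 0.0134), and the call did not hold without replicate 2 at 25% (0.0682) or without either library at 12.5% (0.0601 and 0.282). At an unadjusted p under 0.05, 2 members were higher on day 6 and 2 lower on day 3 at that step. Of all 22994 genes tested, 909 were higher on day 6 and 2122 lower on day 3. The 4 called higher at 25% against 50% on day 6 became 2 without replicate 2 at 25%, and the 2 called higher on day 3 became 1 without replicate 2 at 50% or any 1 library at 25%. The 3 called higher at 12.5% against 25% on day 3 were UBTF, NOP56 and PES1, and became 1 without replicate 2 at 25% or replicate 1 at 12.5%.

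The step from 12.5% to 0% on day 3 ran the other way. Of the 39 genes, 18 were higher at 0% than at 12.5% and 2 were lower, against 8.50% of all genes higher and 12.5% lower. With library position in the fit, 12 were higher and 0 lower. The median log2 change of the members was 0.23, that of all genes tested was 0.02, and among genes of the same range of level 15.9% were higher. The largest rises were those of MYBBP1A (0.67), POLR1B (0.6 ± 0.146, adjusted p = 0.00318) and NOP16 (0.55 ± 0.1, adjusted p = 0.000152). Of these, the call of POLR1B did not hold under every setting tried. Side by side, BOP1 changed by -0.48 at 12.5% and 0 at 0% against 100%, and WDR43 by -0.57 and -0.12, in comparisons that share the libraries at 100%. FBL changed by 0.21 ± 0.083 on this step (adjusted p = 0.0764). The 2 lower genes were GAR1 (-0.44 ± 0.107, adjusted p = 0.00336) and NOP56 (-0.16 ± 0.055, adjusted p = 0.046), and the call of NOP56 did not hold without replicate 1 or 2 at 12.5% (0.226 and 0.0577) or replicate 2 or 3 at 0% (0.228 and 0.106). Neither of these 2 calls held with library position in the fit.

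**Figure D3:**
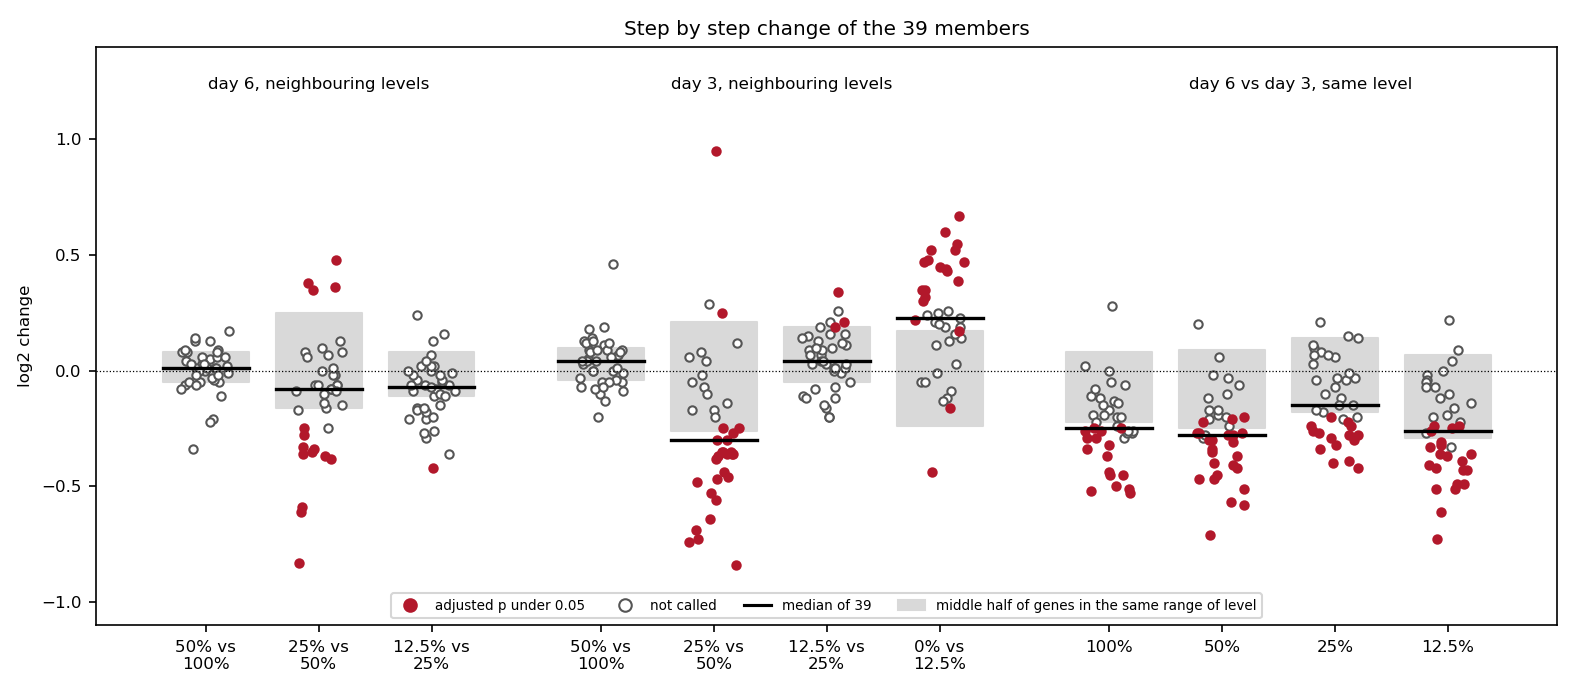
Log2 change of each of the 39 genes (points, filled where the adjusted p was under 0.05) between neighbouring histidine levels on day 6 and on day 3, and between day 6 and day 3 at each level, with a black line at the members' median and a grey band over the middle range of 8031 genes of similar level. The points lie mostly below 0 from 50% to 25%, with medians of -0.08 on day 6 and -0.3 on day 3, and mostly above 0 from 12.5% to 0%, with a median of 0.23.

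On day 6 the list stood lower than on day 3 at each shared level. At 100% histidine 16 members were lower on day 6 and 0 higher, against 5.73% of all genes lower and 2.93% higher. At 50% the count was 24 lower and 0 higher, against 9.86% and 6.14%, at 25% it was 15 and 0, against 6.75% and 5.04%, and at 12.5% it was 21 and 0, against 10.2% and 3.56%. Of the 8031 genes at a similar level, 14.8%, 23.9%, 15.1% and 25.6% were lower at the 4 levels. The medians of the members were -0.25, -0.28, -0.15 and -0.26. At an unadjusted p under 0.05, 0, 0, 2 and 1 members were higher, against 2078, 2919, 2527 and 2267 of the 22994 genes tested.

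These day differences depend on the scaling, on library position and on single libraries. Scaling every library to the same total moved the median of all genes at 100%, 50% and 12.5% to 0.14, 0.15 and 0.14, against 0.02, 0.04 and 0.03 as deposited, and with that scaling 5, 15 and 12 members were lower, with medians of -0.14, -0.17 and -0.15. Quantile normalization gave 8, 14 and 10 lower at these levels. With library position, the number of the library in the order of the samples, modulo 8, in the fit, 4 were lower at 100% and 9 at 12.5%. At 100% the count of 16 was 4 without replicate 3 of day 3, 9 without replicate 1 of day 6 and 9 without replicate 3 of day 6. At 25% the count of 15 was 9 without replicate 1 of day 3 or replicate 3 of day 6, and 1 member was then higher in the second case. At 12.5% the count of 21 was 12 without either library of day 6. At 100% NOLC1 (-0.53 ± 0.06, adjusted p = 8.91e-07), NOP58 (-0.52 ± 0.091, adjusted p = 0.0004) and MYBBP1A (-0.51 ± 0.065, adjusted p = 5.26e-06) were the 3 members lower under every setting tried. NOP56 changed by -0.12 at 100% (adjusted p = 0.28) and fell by 0.42 ± 0.055 at 25% and 0.73 ± 0.062 at 12.5% (adjusted p = 1.3e-05 and 1.87e-08).

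The effect of a level was also compared between days with an interaction term. At 50% no member differed, where 0% of all genes were called lower and 0.00435% higher. At an unadjusted p under 0.05, 3 members differed there. Of all 22994 genes, 454 were more negative and 452 more positive at that threshold. At 25%, 5 members had a more positive change on day 6 and 1 a more negative one, against 2.71% and 2.01% of all genes and 6.8% and 3.69% of the 8031 at a similar level. That count was 0 and 0 with library position in the fit, 1 and 3 under quantile normalization and 2 and 2 with every library scaled to the same total. At 12.5%, 0 were more positive and 3 more negative, against 1.28% and 2.36%. At an unadjusted p under 0.05, 7 members were more positive, as were 1485 of all 22994 genes. Of the 5 at 25%, 1 was left without replicate 3 at 100% on day 3, and 3 without any 1 of replicate 3 at 25% on day 3 and replicates 1 and 3 at 100% and replicate 2 at 25% on day 6. Of the 3 at 12.5%, 1 was left without replicate 1 at 12.5% on day 6, and 1 member was more positive without replicate 2 at 12.5% on day 3 or replicate 2 at 100% on day 6. The change of NOP56 on day 6 minus that on day 3 was -0.62 ± 0.088 at 12.5% (adjusted p = 6.85e-05), the 1 difference that held under every setting tried.

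MYC, a known activator of these genes, was measured beside them. It had 6606, 7609 and 6993 normalized counts at 100%, 6663, 6671 and 7231 at 50%, 3776, 3477 and 3614 at 25%, and 2318 and 2061 at 12.5% on day 6. On day 3 MYC had 8845 and 10510 at 100%, 10040, 9605 and 9903 at 50%, 3262, 2928 and 2795 at 25%, 2187, 2059 and 2008 at 12.5%, and 3593, 3264 and 3155 at 0%. All libraries at 25% or below lay under all at 50% and 100% on either day. Its log2 change was -0.96 ± 0.072 at 25% and -1.69 ± 0.081 at 12.5% on day 6 (adjusted p = 1.85e-10 and 2.65e-14). On day 3 its log2 change was -1.69, -2.21 and -1.53 at 25%, 12.5% and 0% (SE 0.081 each, adjusted p = 2.05e-14, 4.34e-17 and 5.59e-14). From 12.5% to 0% it rose by 0.68 ± 0.072 (adjusted p = 5.23e-08). At 0% MYC was thus at 2.89-fold less than at 100%.

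To follow the list as a whole, each gene's log2 values were standardised over the 25 libraries and averaged over the 39 genes. The average by library was -0.38 to -0.18 at 100%, -0.4 to -0.21 at 50%, -0.97 to -0.46 at 25% and -1.05 to -1.01 at 12.5% on day 6. On day 3 it was 0.52 to 0.89 at 100%, 0.72 to 0.93 at 50%, -0.3 to -0.12 at 25%, -0.09 to 0.16 at 12.5% and 0.71 to 1.21 at 0%. The libraries at 0% thus stood in the range of those at 100% and 50% of that day, or above it. The same average was also made from log2 values standardised over the 9 group means. The members most like it were NCL (r = 0.99), NOLC1 (0.98) and GNL3 (0.97), and the farthest were UTP15 (-0.26), NOP56 (0.02) and GAR1 (0.23). This is a description over 9 points that share the libraries, and each member is itself part of the average, so some of its r is built in. Among genes outside the list, the 5 most alike were EBNA1BP2 (r = 0.988), POLR2F (0.986), CCT5 (0.986), TRAF7 (0.980) and ANAPC5 (0.979).

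**Figure D4:**
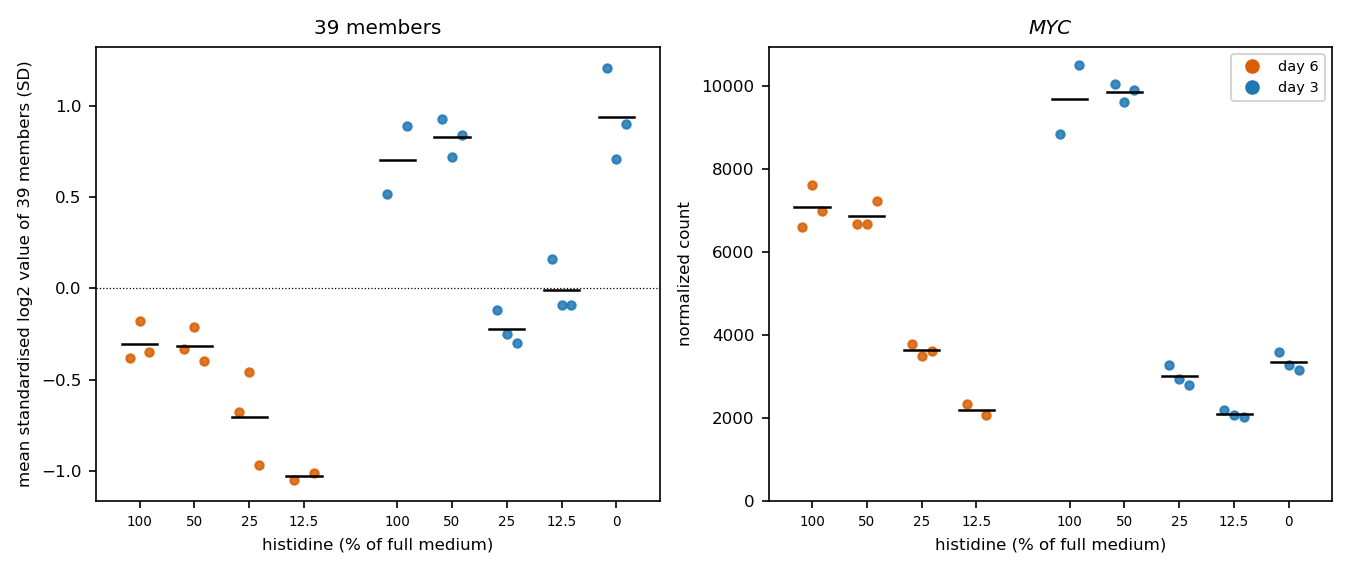
Left, average standardised log2 value of the 39 genes in each library (points, in SD) and, right, normalized counts of MYC, by histidine level in percent, day 6 left of day 3, with a bar at each group's mean. At 0% on day 3 the member average, 0.71 to 1.21, lies in or above the range of 100% and 50%, and MYC, at 3155 to 3593, lies below its own.

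Promoter windows were examined because MYC binds the E-box CACGTG, and they are shown for members whose change is described above. RefSeq promoters, from 250 bases before to 50 bases after a gene's start (GRCh38.p14), were available for 32 of the 39 members, in 41 windows. The letters CACGTG, which read the same on both strands, occurred in 16 of the 32 genes (50.0%), against 8.77% of the 27305 genes of the promoter table and 11.7% of the 13597 of them that were tested here. Of the 17 matches in members, 16 began between 70 bases before and 40 bases after the start (94.1%), against 45.9% of matches in all windows, a range chosen after the positions had been seen. Examples follow, each 5′ to 3′ on the gene's own strand, with the E-box in capitals:
FBL: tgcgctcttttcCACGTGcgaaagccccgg
MYBBP1A: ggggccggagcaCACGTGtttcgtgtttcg
RRP9: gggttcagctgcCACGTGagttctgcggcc
WDR43: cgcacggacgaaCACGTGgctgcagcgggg
BYSL: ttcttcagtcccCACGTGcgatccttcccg
LYAR: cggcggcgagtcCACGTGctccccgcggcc
PES1: tccttggcagggCACGTGcgggaggaagtg
GAR1: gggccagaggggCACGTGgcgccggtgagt
GNL3: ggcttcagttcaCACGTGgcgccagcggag
NOP10 upstream: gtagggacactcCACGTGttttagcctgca
NOP10 at the start: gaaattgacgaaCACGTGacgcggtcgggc

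On the plus strand of GRCh38.p14 lie the windows of GNL3 at chr3:52686026-52686055, WDR43 at chr2:28894658-28894687, BYSL at chr6:41921515-41921544 and GAR1 at chr4:109815781-109815810. On the minus strand of GRCh38.p14 lie the windows of FBL at chr19:39846356-39846385, MYBBP1A at chr17:4555340-4555369, NOP10 at chr15:34343289-34343318, NOP10 at chr15:34343130-34343159, RRP9 at chr3:51941892-51941921, LYAR at chr4:4290068-4290097 and PES1 at chr22:30591880-30591909. The first base of the E-box lay at position 7 of FBL and GNL3, 28 of MYBBP1A, 4 of WDR43, 29 of BYSL, 14 of PES1 and 32 of GAR1, counted from 1 at the start, and at -5 of RRP9, -64 of LYAR and -170 and -11 of NOP10. The genes shown include FBL, which was low at 0%, RRP9, PES1 and GNL3, which were high there, and NOP10, which was not called.

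Calls were also counted for members with and without the E-box. At 12.5% on day 6, 8 of the 16 with it were lower and 2 higher, and 7 of the 16 with a window and no E-box were lower and 2 higher. On day 3, 6 and 10 were lower and 0 and 1 higher at 25%, and 7 were lower and 2 higher in each set at 12.5%. From 12.5% to 0%, 7 were higher and 1 lower in each set. For day 6 against day 3 at 100%, 8 of the 16 with the E-box and 3 of the 16 without it were lower. In either set 0 were higher, and the difference between the sets was not tested. Of all genes tested 5.73% were lower there, as were 14.8% of the 8031 at a similar level. Over all 39 members the count of 16 lower was 4 with library position in the fit. Of the 8031 genes, 18.2% were lower and 24.8% higher at 12.5% on day 6. On day 3 these shares were 19.5% and 20.2% at 25%, 18.9% and 31% at 12.5%, and 23.2% and 15.9% from 12.5% to 0%. A second motif, CCGGAAGT, searched on both strands as the core of ETS factors, occurred in 10 of the 32 genes (31.2%), against 4.95% of all genes of the table and 8.44% of those tested. The motif TGATGNAA, the core of the ATF4 and C/EBP composite element, occurred in 0 of the 32 members against 4.46% of all genes and 2.91% of those tested. No match of one motif overlapped a match of another in the members, and a match describes letters and not a bound site.

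In GENCODE 29, 8 members contain snoRNA genes, namely NOP56, NOP58, DKC1, WDR43, PPAN, NCL, GNL3 and POLR1C. At 12.5% on day 6, 4 of the 8 were lower and 2 higher, and 13 of the 31 others were lower and 4 higher. On day 3, 3 of the 8 were lower and 1 higher at 25%, where 18 of the 31 others were lower and 0 higher. At 0% on day 3, 2 of the 8 were higher and 0 lower, against 4 and 4 of the 31. Of the 8031 genes at a similar level, 18.2% were lower and 24.8% higher at 12.5% on day 6. On day 3 the shares were 19.5% and 20.2% at 25% and 24.7% and 29.3% at 0%. A difference between members with and without a snoRNA gene was not tested.

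Other genes of the pathway were counted in 6 further lists. Of all genes tested, 11.1% were lower and 10.8% higher at 12.5% on day 6, and on day 3, 9.72% and 9.81% were at 25% and 16.1% and 14.8% at 0%. Of the 8031 genes at the level of the 39, the same shares were 18.2% and 24.8%, 19.5% and 20.2%, and 24.7% and 29.3%. The counts describe the lists, and a share near these is not a result about a list. Of 13 other RNA polymerase I factors, 3 were lower and 2 higher at 12.5% on day 6, and on day 3, 4 were lower and 3 higher at 25% and 3 lower and 3 higher at 0%. The subunit genes POLR1D, shared with RNA polymerase III, and POLR1E were the 2 with the smallest p in each of these comparisons. POLR1D fell by 0.78 at 12.5% on day 6 and by 0.77 at 25% and 0.56 at 0% on day 3 (adjusted p = 8.66e-09, 1.24e-08 and 8.17e-07). POLR1E fell by 0.88, 0.96 and 0.9 (adjusted p = 2.85e-07, 7.64e-08 and 7.47e-08).

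Of 44 other small subunit factors, 7 were lower and 9 higher at 12.5% on day 6, and on day 3, 18 were lower and 8 higher at 25% and 7 lower and 16 higher at 0%. NOB1, the nuclease that makes the end of 18S RNA, fell by 0.69 at 12.5% on day 6 and by 0.72 at 25% on day 3 (adjusted p = 1.81e-08 and 1.01e-08). IMP4, a U3 protein, fell by 1.26 at 12.5% on day 6 (adjusted p = 3.74e-06). NOM1 fell by 0.79 at 25% and 0.78 at 0% on day 3 (adjusted p = 5.29e-08 and 2.07e-08), and the helicase DDX49 rose by 1.04 at 0% (adjusted p = 8.61e-10).

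Of 44 other large subunit factors, 8 were lower and 9 higher at 12.5% on day 6, and on day 3, 15 were lower and 4 higher at 25% and 4 lower and 11 higher at 0%. RSL1D1 fell by 0.72 at 12.5% on day 6 and 0.59 at 25% on day 3 (adjusted p = 2.8e-08 and 8.18e-07), and the methyltransferase FTSJ3 rose by 0.57 at 12.5% on day 6 (adjusted p = 3.36e-07). The helicase DDX51 fell by 0.57 at 25% on day 3 (adjusted p = 6.69e-06). At 0% on day 3 the helicase DDX27 rose by 0.67 and EIF6, which keeps the new large subunit apart from the small one, by 0.52 (adjusted p = 1.3e-06 and 1.16e-05).

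Of 12 other snoRNP assembly factors, 3 were lower and 1 higher at 12.5% on day 6, and on day 3, 2 were lower and 2 higher at 25% and 4 lower and 2 higher at 0%. RPAP3, part of the chaperone complex that assembles these particles, rose by 0.47 at 12.5% on day 6 and by 0.65 at 25% and 0.31 at 0% on day 3 (adjusted p = 0.000581, 1.31e-05 and 0.0134). The call at 0% did not hold without replicate 3 at 100% (0.171) or replicate 3 at 0% (0.062). PIH1D1, of the same complex, fell by 0.46 at 12.5% on day 6 (adjusted p = 0.00448, or 0.0898 without replicate 2 at 12.5%). RUVBL1 fell by 0.35 at 25% and ZNHIT6 rose by 0.33 at 0% on day 3 (adjusted p = 0.0021, or 0.0891 without replicate 3 at 100%, and 0.00066).

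Of 16 genes of the RNA exosome and its cofactors, 2 were lower and 7 higher at 12.5% on day 6, and on day 3, 3 were lower and 4 higher at 25% and 4 lower and 6 higher at 0%. EXOSC5 fell by 0.69 and the nuclease XRN2 rose by 0.27 at 12.5% on day 6 (adjusted p = 1.08e-05 and 0.00228). EXOSC8 rose by 0.67 and EXOSC7 fell by 0.49 at 25% on day 3 (adjusted p = 3.11e-06 and 0.00109, where the second was 0.0512 without replicate 3 at 100%), and EXOSC6 rose by 0.49 and EXOSC9 fell by 0.43 at 0% on day 3 (adjusted p = 2.51e-05 and 0.000252).

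Of 21 RNA polymerase III and 5S RNA genes, 2 were lower and 4 higher at 12.5% on day 6, and on day 3, 4 were lower and 4 higher at 25% and 4 lower and 8 higher at 0%. GTF3C5, of the factor TFIIIC, rose by 0.54 at 12.5% on day 6 and by 0.53 at 25% on day 3 (adjusted p = 5.4e-07 and 8.25e-07), and POLR3B, a large subunit of the polymerase, fell by 0.68 at 12.5% on day 6 (adjusted p = 0.000189). POLR3C rose by 0.93 at 25% and 0.78 at 0% on day 3 (adjusted p = 8.92e-07 and 5.33e-06), and MAF1, the repressor of RNA polymerase III, by 0.75 at 0% (adjusted p = 5.38e-07).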

How the data were processed

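RNA sequencing libraries of Jurkat cells were grouped by day and histidine level as their labels give them. The authors deposited 1 table of normalized count values (a signal per gene, scaled between libraries). The submitters' processing notes name FastQC 0.11.9, kallisto 0.50.1, DESeq2 1.44.0 and the build GRCh38, without their roles. Low values did not come out as whole reads (55.5% to 75.4% of values up to 20 reads, within 0.05), so sequencing depth is unknown, no count model was run, and the planned test on recovered counts was left out. Per the labels' protocols libraries were strand-specific.

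Values were tested as log2(value + 1) in limma 3.58.1 (R 4.3.3, statmod 1.5.0) with 9 group means, trended and robust variance, over the 22994 genes at 10 or more in at least 2 libraries, with Benjamini-Hochberg adjustment over all of them and a threshold of 0.05. Fold changes on this scale understate those of low genes. The code was tested on simulated data. The 39 genes and all lists (6 of pathway genes, 2 of marker genes) were chosen with earlier results of these data known. Genes named with every library were core members and the 3 largest called changes in each main comparison, and each pathway list gave its 2 genes of smallest p in 3 comparisons. MYC was added as a regulator. Genes shown with part of their libraries were picked by role after their values were seen. Alternatives covered the pseudocount, filter, scaling, replicate block, library position, the samples in the fit and each library left out in turn. Columns of no sample numbered 0. Promoter sequences are from RefSeq (GRCh38.p14) and gene positions from GENCODE 29.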

Additional observations from a re-analysis of the deposited data

Results flagged for a closer look

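The effect of a histidine level against 100% differed between day 6 and day 3 for 9 gene and level pairs, by the interaction term in limma (change on day 6 minus change on day 3, adjusted over all genes tested). At 25% the difference was 0.4 ± 0.085 (SE) for UBTF (adjusted p = 0.00428), 0.34 ± 0.081 for NOLC1 (adjusted p = 0.0124) and 0.39 ± 0.087 for MYBBP1A (adjusted p = 0.00634). It was 0.41 ± 0.111 for NOP2 (adjusted p = 0.0288), 0.43 ± 0.125 for RRS1 (adjusted p = 0.0469) and -0.3 ± 0.083 for NOP56 (adjusted p = 0.0355). At 12.5% it was -0.62 ± 0.088 for NOP56 (adjusted p = 6.85e-05), -0.4 ± 0.085 for DKC1 (adjusted p = 0.00669) and -0.52 ± 0.122 for WDR74 (adjusted p = 0.0135).

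Without replicate 3 at 100% on day 3, the differences at 25% of NOLC1 (0.31, adjusted p = 0.0713), MYBBP1A (0.33, adjusted p = 0.073), NOP56 (-0.31, adjusted p = 0.0851), NOP2 (0.31, adjusted p = 0.217) and RRS1 (0.4, adjusted p = 0.165) were not called. NOP56 at 25% was also lost without any 1 of replicate 1 at 100%, replicates 1 and 3 at 25% (day 3), replicates 2 and 3 at 100% and replicates 2 and 3 at 25% (day 6), with adjusted p between 0.0597 and 0.115. NOP2 was lost without any 1 of replicates 2 and 3 at 25% (day 3), replicates 1 and 3 at 100% and replicates 2 and 3 at 25% (day 6), with adjusted p between 0.0501 and 0.0886. RRS1 was lost without any 1 of replicate 1 at 100%, replicates 1 and 3 at 25% (day 3), replicates 1 and 3 at 100% and replicates 1 and 2 at 25% (day 6), with adjusted p between 0.088 and 0.115. UBTF at 25% was not called with library position in the fit or with the compared groups alone. At 12.5%, DKC1 was lost without replicate 1 at 12.5% on day 6 (adjusted p = 0.0515), and WDR74 without that library (0.0823) or replicate 1 at 100% on day 3 (0.126). The difference of NOP56 at 12.5% held under every setting tried.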

How the results depend on the processing

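Counts of members called are given in the order of the settings. With every library scaled to the same total, 4 were higher at 25% against 100% and 4 against 50% on day 3, and at 12.5% against 25% on day 3 there were 2 lower and 1 higher. For day 6 against day 3 that scaling gave 5, 15 and 12 lower at 100%, 50% and 12.5% and 1 higher at 50%, 25% and 12.5%. The day difference of effects then had 2 lower and 2 higher at 25% and 1 higher at 12.5%. Quantile normalization gave 2 higher at 12.5% on day 6, 4 lower and 1 higher at 12.5% against 25% and 1 lower at 0% against 12.5% on day 3. For day 6 against day 3 it gave 8, 14 and 10 lower at 100%, 50% and 12.5% and 1 higher at 50%, 25% and 12.5%, and for the day difference 3 lower and 1 higher at 25% and 1 higher at 12.5%. NPM1 turned its direction under it, to 0 at 25% against 50% and -0.2 at 12.5% against 25% on day 3, and to 0.02 for day 6 against day 3 at 50%. The median member at 12.5% against 25% on day 3, 0.04 as deposited, was -0.04 under both scalings.

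With library position (sample order modulo 8) in the fit, 12 were lower at 25% and 2 at 0% on day 3, and 3 higher at 12.5% on day 6. At 25% against 50% it gave 6 lower and 2 higher on day 6 and 1 higher on day 3. At 12.5% against 25% it gave 0 lower on day 6 and 0 higher on day 3, and at 0% against 12.5% 0 lower and 12 higher. Day 6 against day 3 had 4 lower at 100% and 9 at 12.5%, and the day difference at 25% had 0 in each direction. When each fit held the compared groups alone, 2 were higher at 25% on day 6, 1 lower at 0% against 12.5%, 0 lower at 12.5% against 25% on day 6, and the day difference had 0 lower and 2 higher at 25% and 1 higher at 12.5%. Without the filter, 1 was lower at 0% against 12.5% and 0 in the day difference at 25%. Without 3 libraries of day 6 together (replicate 2 at 25%, replicate 3 at 100% and at 50%), chosen after seeing the data, 2 were higher at 25%, 1 at 25% against 50%, 0 lower at 12.5% against 25%, and 0 lower and 2 higher in the day difference at 25%. Pseudocounts of 0.5 and 10 moved no count by more than 1.5 times.

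Leaving out each library in turn gave 8 to 11 lower and 2 to 5 higher at 25% and 10 to 17 lower and 2 to 5 higher at 12.5% on day 6. On day 3 it gave 12 to 21 lower and 1 to 2 higher at 25%, 12 to 17 and 2 to 5 at 12.5%, and 2 to 4 lower at 0%. Between levels there were 2 to 4 higher at 25% against 50% on day 6 and 1 to 2 on day 3, 0 to 1 lower at 12.5% against 25% on day 6 and 1 to 3 higher on day 3, and 1 to 2 lower at 0% against 12.5%. Day 6 against day 3 had 4 to 14 lower at 100%, 9 to 15 lower and 0 to 1 higher at 25%, and 12 to 20 lower at 12.5%. The day difference had 0 to 1 lower and 1 to 5 higher at 25%, and 1 to 3 lower and 0 to 1 higher at 12.5%. Where the libraries are not named in the report, the cause was not tested.

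The replicate numbers did not pair the libraries (median correlation of deviations 0 over 92 pairs with the same number, range -0.11 to 0.19). The replicate block gave 16 lower and 5 higher at 12.5% on day 6, 14 lower for day 6 against day 3 at 100% and 20 at 12.5%, and moved no count by more than 1.5 times. The planned count test could not be run, since whole reads were not recovered, and depth is unknown.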
